A study of Mus musculus with 15 samples.

Results

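The aldehyde oxidase genes of the mouse, Aox1, Aox2, Aox3 and Aox4, were followed in striatal RNA sequencing. They are 4 of the 45777 features in the deposited tables and were found by gene symbol. Aox4 was picked because it had no reads in the F1 METH libraries, so its F1 values are a description, and the other members joined it as the rest of the gene family. Male ICR mice, an outbred wild-type stock, were studied at 7 weeks of age. Their founders were males treated from 6 weeks of age. These received methamphetamine (METH, a psychostimulant that releases dopamine) at 5 mg/kg or saline at 10 mL/kg under the skin on 21 days, and then sired litters with females that had no drug. The F1 METH (n = 3) and F1 saline (n = 4) mice were sons of founders. The F2 METH (n = 4) and F2 saline (n = 4) mice descended from F1 males, again through females without drug. The protocol names the founders alone as dosed, and which litter or founder an animal came from is not stated. Animals of a group may therefore be relatives, whereas the tests treat them as independent. The p-values judge group differences against the spread between these animals, and may be too small for a statement about lineages.

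Total counts per library ran from 32805918 to 38514778 in F1 METH and from 35044343 to 37659436 in F1 saline. In F2 they ran from 31563806 to 47199267 in METH and from 34622167 to 50573906 in saline libraries. The labels name the cells as neuronal, yet markers of glia and vessels were present beside those of striatal neurons. Of the 10 spiny projection neuron markers and the 10 astrocyte markers, 0 were at 0 reads in any group. The summed level of 10 cortical excitatory neuron markers ran from 45.7 to 830 CPM (read counts scaled to library size) over the 15 libraries, and its part in the results was not tested beyond the fits without the libraries that were high in Slc17a7, a cortical marker. In bulk tissue, fewer cells of a type and less RNA per cell cannot be told apart.

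Aldehyde oxidases are cytosolic enzymes that carry FAD, iron-sulfur clusters and a sulfurated molybdenum cofactor. They oxidise aldehydes, among them retinaldehyde, and nitrogen-containing ring compounds, and they pass electrons to oxygen, which yields hydrogen peroxide and superoxide. Rodents keep a cluster of such genes, whereas humans keep AOX1 as the active enzyme. In the mouse, Aox1 and Aox3 are best known from liver, Aox4 from the Harderian gland and skin, and Aox2 from the nasal mucosa. In the nervous system, Aox1 RNA has been described in motor neurons and the choroid plexus.

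The 4 genes lie in a row on chromosome 1, in the order Aox1, Aox3, Aox4 and Aox2 (build GRCm38.p6, the same build as mm10). Aox1 (gene ID 11761) spans 58029809 to 58106410, Aox3 (gene ID 71724) 58113135 to 58202221, Aox4 (gene ID 71872) 58210397 to 58268600, and Aox2 (gene ID 213043) 58278326 to 58379264. The gaps between neighbours are 6724, 8175 and 9725 bases, and the whole cluster covers 349456 bases. In the GENCODE annotation, the main transcripts of Aox1, Aox3 and Aox4 have 35 exons each and that of Aox2 has 36. Their coding sequences run from 4002 to 4038 bases.

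The start regions of the genes are shown because Aox4 alone went unread in 1 group while its neighbours on both sides were measured in the same libraries or, for Aox2, were almost unread in all groups. The RefSeq sequences (GRCm38.p6, plus strand, 300 bases around an annotated start) are chr1:58029719-58030018 for Aox1, chr1:58112886-58113185 for Aox3, chr1:58210147-58210446 for Aox4 and chr1:58278076-58278375 for Aox2. The Aox1 window lies around a start downstream of the outermost gene start. Capitals mark matches to 4 motifs searched on both strands: TATAAA of the TATA box, CACGTG of the E-box, TGACTCA of the AP-1 site and TGACNNNGC of the antioxidant response element.
Aox1: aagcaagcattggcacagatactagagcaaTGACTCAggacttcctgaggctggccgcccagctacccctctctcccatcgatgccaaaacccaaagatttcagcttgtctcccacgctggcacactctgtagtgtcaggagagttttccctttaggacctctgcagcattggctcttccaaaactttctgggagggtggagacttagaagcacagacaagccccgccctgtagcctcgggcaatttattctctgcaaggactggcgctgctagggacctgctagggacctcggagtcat
Aox3: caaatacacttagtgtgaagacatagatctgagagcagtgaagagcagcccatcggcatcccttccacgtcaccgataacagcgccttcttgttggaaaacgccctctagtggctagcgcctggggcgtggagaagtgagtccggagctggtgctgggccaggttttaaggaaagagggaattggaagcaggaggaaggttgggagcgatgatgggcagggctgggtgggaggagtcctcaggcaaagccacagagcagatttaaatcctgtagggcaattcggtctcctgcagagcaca
Aox4: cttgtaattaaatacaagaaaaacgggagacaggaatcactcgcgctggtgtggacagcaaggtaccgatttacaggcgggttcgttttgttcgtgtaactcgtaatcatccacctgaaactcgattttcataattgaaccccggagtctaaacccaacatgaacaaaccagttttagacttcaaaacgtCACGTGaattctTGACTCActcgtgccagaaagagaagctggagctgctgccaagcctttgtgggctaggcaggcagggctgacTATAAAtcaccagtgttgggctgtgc
Aox2: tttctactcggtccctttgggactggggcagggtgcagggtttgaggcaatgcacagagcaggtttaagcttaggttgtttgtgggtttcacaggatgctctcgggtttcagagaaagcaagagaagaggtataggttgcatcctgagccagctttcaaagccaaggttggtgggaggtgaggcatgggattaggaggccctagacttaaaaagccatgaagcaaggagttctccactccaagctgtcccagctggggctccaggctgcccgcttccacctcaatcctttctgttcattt

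The Aox4 window held the TATA box, E-box and AP-1 letters, with no overlap between them. The Aox1 window held the AP-1 letters, and the Aox3 and Aox2 windows held none of the 4. Of 32851 mouse windows of this length, 13.6% held the TATA box letters, 7.15% those of the E-box, 5.20% those of the AP-1 site and 12.4% those of the antioxidant response element. In the Aox4 window CACGTG lay from -60 to -55 and TGACTCA from -48 to -42, counted from 0 at the annotated start base. TATAAA lay from 24 to 29, after that base. These motifs were chosen after the windows were seen, and a match is a description of letters only. The Aox4 window had 47.0% G and C bases and 13 CpG pairs, the Aox3 window 55.0% and 10, the Aox1 window 54.3% and 7, and the Aox2 window 52.3% and 3.

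Because the genes are paralogs, the sequence they share decides whether reads of 1 can be counted for another. Over aligned coding bases, Aox4 was 65.3% identical to Aox1, 67.4% to Aox3 and 68.3% to Aox2. The longest run of identical coding bases between Aox4 and a paralog was 46 bases, with Aox2, against 28 with Aox1 and 22 with Aox3. Of 4924 overlapping windows of 50 bases in the Aox4 transcript, 0 occurred in a transcript of another gene, and the same count was 0 for the other members. The most shared stretch is printed from the GENCODE transcripts, at coding bases 343 to 428 of Aox4. In the Aox4 line, capitals mark the 62 of 86 bases that all 4 genes share, and in the other lines the bases identical to Aox4.
Aox4: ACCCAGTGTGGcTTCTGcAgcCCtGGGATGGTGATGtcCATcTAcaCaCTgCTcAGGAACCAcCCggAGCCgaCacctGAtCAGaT
Aox1: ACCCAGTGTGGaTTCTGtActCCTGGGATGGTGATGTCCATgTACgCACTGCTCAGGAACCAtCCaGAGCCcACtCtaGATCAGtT
Aox3: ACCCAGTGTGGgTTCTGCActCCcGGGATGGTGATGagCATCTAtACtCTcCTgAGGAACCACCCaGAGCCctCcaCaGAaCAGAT
Aox2: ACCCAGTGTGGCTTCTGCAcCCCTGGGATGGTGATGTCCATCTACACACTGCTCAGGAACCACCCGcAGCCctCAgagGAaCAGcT

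Aox1 matched Aox4 at 73 of these 86 bases, Aox3 at 69 and Aox2 at 77. Against Aox2, the closest here, 46 bases in a row (Aox4 coding bases 363 to 408) had no mismatch, and most mismatches lay after them. Neither the read length nor the handling of reads with several matches is stated.

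Levels of different genes are compared here on the deposited TPM scale (read counts divided by transcript length and scaled to the same total in each library). Aox1 was the most abundant member, at 3.17 ± 0.661 TPM (mean ± SD over 15 libraries, range 2.13 to 4.62). Aox3 followed at 0.472 ± 0.206 TPM, with a range of 0.176 to 0.937. Aox1 was above Aox3 in 15 of 15 libraries, by 3.54-fold to 20.9-fold within a library. Aox4 was at 0.204 ± 0.125 TPM, with a range of 0.0 to 0.377 that includes the F1 METH libraries at 0. Aox3 was above Aox4 in 13 of 15 libraries, in 7 of 8 F2 libraries and in 3 of 4 F1 saline libraries, and the ranges of these neighbours in the order overlapped. Among 29979 features with any TPM, Aox1 stood at percentile 56.0 of the mean level, Aox3 at 40.9 and Aox4 at 33.8. Generations were normalized in separate tables, and pooled levels carry that limit.

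Aox2 was close to unread. It had 2 reads in F2 saline replicate 1 and 0 reads in the other libraries, too few for a test. At these depths 3 counts, the limit that a count of 0 allows, equal 0.0597 to 0.0949 CPM in a library, and this covers counting error only. The long noncoding RNA gene Gm39644, which overlaps the far end of Aox2, had 43 reads over F1 METH, 53 over F1 saline, 50 over F2 METH and 53 over F2 saline libraries. The other annotated features inside the cluster, Gm39643, Gm24548 and Gm15759, had 0 reads in every library, so no annotated feature that overlaps Aox3 held reads, and none overlaps Aox4.

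**Figure D1:**
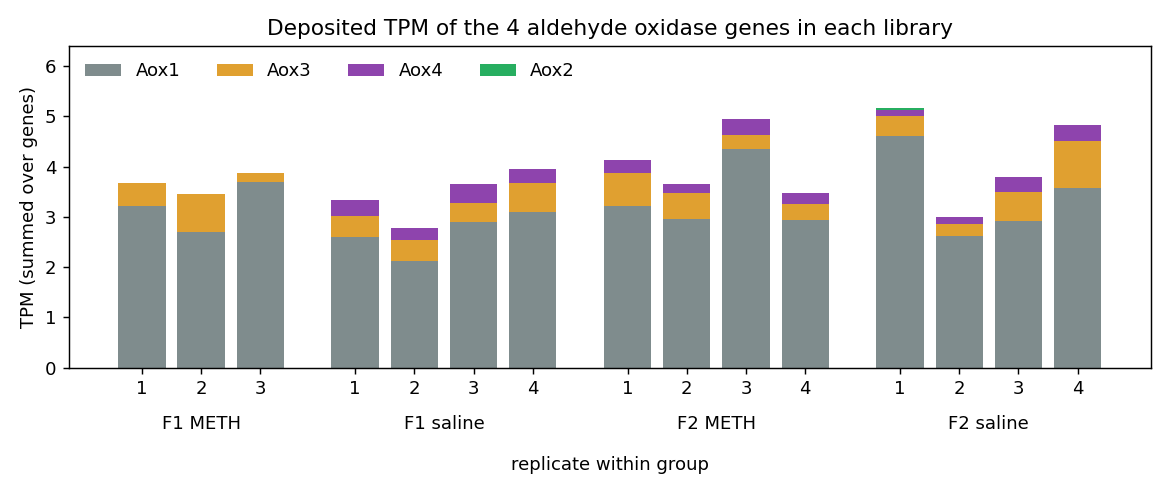
Deposited TPM of Aox1 (grey), Aox3 (orange), Aox4 (purple) and Aox2 (green), stacked for each library and ordered by group and replicate on the horizontal axis. Aox1 makes up most of every bar, the Aox4 segment is missing from the 3 F1 METH bars, and Aox2 appears only as a trace in F2 saline replicate 1.

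The first comparison asked whether sons of METH sires differ from sons of saline sires. Aox4 had 0 reads in F1 METH replicates 1, 2 and 3, against 24, 18, 29 and 23 reads in F1 saline replicates 1 to 4. Every F1 METH library lay below every F1 saline library, and this is the contrast on which the gene was chosen. Aox4 averaged 0.635 ± 0.106 CPM in F1 saline libraries (SD, n = 4). At the F1 saline rate, the 3 METH libraries would have held 20.4, 24.5 and 21.1 reads, 66.0 in all. Against a floor of 3 counts over the METH group, or 0.0290 CPM, Aox4 was at least 22.0-fold lower in F1 METH, with library totals scaled by TMM (trimmed mean of M values). It was at least 13.8-fold lower without F1 METH replicate 2, the deepest of the 3, and at least 13.1-fold lower without the libraries with Slc17a7 above 100 CPM, since fewer METH libraries raise the floor. The bound covers only the counting error of the METH reads and takes the F1 saline rate as exact. No p-value is given because these values chose the gene. Calls of Aox4 in F1 that are given below carry the same limit. Genotypes of these outbred animals were not measured, and with litters unknown, descent from a METH founder and alleles shared by relatives cannot be told apart.

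How rare such a pattern was can be counted. Of 16864 features with at least 10 reads in each of the 4 F1 saline libraries, 1 had 0 reads in all F1 METH libraries (0.00593%), and it was Aox4. The gene was picked for this lack of reads, so its place in the count was fixed in advance and the share is a description. The reverse pattern, 0 reads in F1 saline and at least 10 in each METH library, was found for 2 of 17026 features, the long noncoding RNAs 1700041B01Rik with 72 reads and Gm36170 with 38. In F2, 0 of 16873 features had 0 reads in METH, and 1 of 16931 had 0 in saline, the long noncoding RNA Gm38515 with 58 reads over METH libraries. Among features with no F1 METH reads, the pseudogene LOC108168731 had more saline reads than Aox4, 211, but these came from 2 of the 4 saline libraries (69 and 142 reads). Just below Aox4 in F1 saline reads stood Pla2g4b, with 69 reads that all came from replicate 4, and Sim1, with 61 of its 65 reads in replicate 2. Just outside the rule stood Tssk6, with 1 read in F1 METH and 53 in F1 saline, of which 49 were in replicate 3. Also just outside, and read in every saline library, stood the pseudogene Gm32802, with 3 reads in F1 METH and 17, 19, 3 and 9 in F1 saline, and Neurog2, a neurogenic factor, with 2 reads in F1 METH and 4, 6, 29 and 6 in F1 saline.

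Aox1, the neighbour at the head of the cluster, was at 6.18, 4.89 and 6.73 CPM in F1 METH replicates 1 to 3. In F1 saline replicates 1 to 4 it was at 4.64, 3.81, 4.97 and 5.62 CPM. METH replicates 1 and 3 lay above all saline libraries and replicate 2 lay among them, so the groups overlapped. The means were 5.94 ± 0.943 CPM in METH (n = 3) and 4.76 ± 0.751 CPM in saline (n = 4). The log2 fold change was 0.32 (SE 0.18), which did not pass edgeR's quasi-likelihood test with Benjamini-Hochberg adjustment over all genes (adjusted p = 0.994).

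Aox3, which lies between Aox1 and Aox4, was at 1.15, 1.46 and 0.483 CPM in F1 METH replicates 1 to 3. In F1 saline replicates 1 to 4 its values were 1.13, 1.07, 0.972 and 1.58 CPM. METH replicate 3 was the lowest of the 7 libraries, with 16 reads, and the others intermingled. The log2 fold change was -0.20 (SE 0.38, edgeR adjusted p = 0.994). It was 0.13 without F1 METH replicate 3, so this library sets the sign.

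edgeR called neither of these 2 members in F1, and 0 of 18499 genes (0.0%). DESeq2 called 11 genes and limma-voom 3, and neither Aox1 nor Aox3 was among them. Aox4, chosen on these reads, was among both. edgeR did not call it in the fit of F1 alone but did in 1 fit of all 15 libraries. An unadjusted p under 0.05 was seen for 774 genes (4.18%) and for 0 of these 2 members. Groups that did not overlap in CPM were found for 5.5% of genes tested in F1, so that pattern alone is common. Within the family, Aox1 made up 87.0% ± 8.75 of the summed TPM in F1 METH and 78.1% ± 1.15 in F1 saline, while Aox4 made up 0.0% in F1 METH and 8.94% ± 1.35 in F1 saline (SD, n = 3 METH and n = 4 saline). Aox4 was picked for its lack of reads in F1 METH, which leaves the whole sum there to Aox1 and Aox3. The Aox1 shares are therefore no separate evidence of a shift within the family. The summed TPM of the family was 3.67 ± 0.204 in F1 METH and 3.43 ± 0.505 in F1 saline.

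Markers of several cell types ran higher in the F1 METH libraries in which Aox1 was measured. The summed level of 12 endothelial markers was 467 to 528 CPM in METH and 373 to 441 CPM in saline, and 0 of the 12 were at 0 reads in either group. That of 10 pericyte and smooth muscle markers was 275 to 293 CPM in METH and 219 to 252 CPM in saline, again with 0 markers at 0 reads. The 12 choroid plexus markers summed to 143 to 211 CPM in METH and 150 to 175 CPM in saline, ranges that overlapped. Most of that sum was Enpp2, at 106 to 172 CPM in METH and 120 to 137 CPM in saline. It therefore says little about the other markers of that list. Higher fitted values in F1 METH were seen for 10 of 12 endothelial, 10 of 10 pericyte, 10 of 12 fibroblast and meningeal, 10 of 10 oligodendrocyte, 9 of 10 microglia, 8 of 10 astrocyte and 8 of 10 spiny projection neuron markers. They were seen for 1 of 10 cortical excitatory neuron, 0 of 5 erythrocyte and 3 of 7 choroid plexus markers. The 10 oligodendrocyte markers summed to 7783 to 10911 CPM in METH and 6962 to 8691 CPM in saline, and the 12 fibroblast and meningeal markers to 125 to 144 CPM in METH and 113 to 127 CPM in saline, both overlapping. An unadjusted p under 0.05 was seen for 6 of 12 endothelial, 4 of 10 oligodendrocyte, 2 of 10 pericyte, 2 of 12 fibroblast and 2 of 10 astrocyte markers, beside 4.18% of all genes, and edgeR called 0 genes of these lists. Their part in the Aox1 values was not tested.

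**Figure D2:**
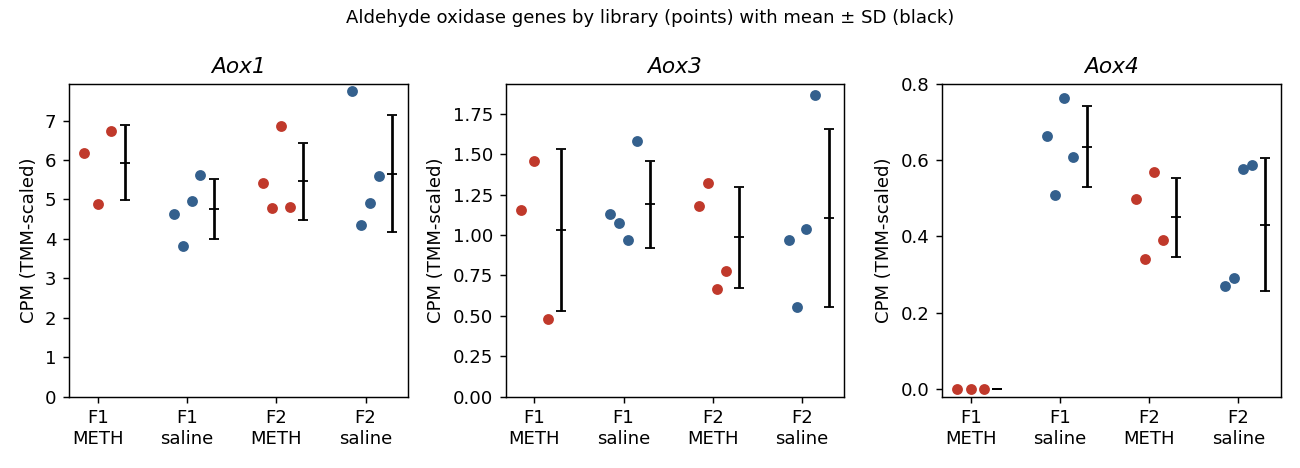
CPM of Aox1, Aox3 and Aox4 in each library (points, METH lineage red, saline lineage blue), with the group mean and SD in black. The 3 F1 METH libraries sit at 0 for Aox4 below the F1 saline libraries at 0.508 to 0.762 CPM, whereas the groups overlap for Aox1 and Aox3 and for every gene in F2.

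The second comparison asked the same of grandsons, and here the Aox4 values had no part in the choice of the gene. Aox4 had 19, 16, 18 and 14 reads in F2 METH replicates 1 to 4, against 10, 10, 29 and 21 reads in F2 saline replicates 1 to 4. All 8 libraries held reads, and the METH libraries fell inside the range of the saline ones in CPM. The levels were 0.450 ± 0.104 CPM in F2 METH and 0.431 ± 0.174 CPM in F2 saline (SD, n = 4 each). The log2 fold change was 0.039 (SE 0.37, edgeR adjusted p = 0.998). With its standard error, this value leaves room for a moderate difference either way at so few reads, but each F2 METH library stood above the level of 3 counts, 0.0639 to 0.0949 CPM in those libraries.

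Aox1 was at 5.41, 4.77, 6.86 and 4.82 CPM in F2 METH replicates 1 to 4 and at 7.74, 4.36, 4.90 and 5.61 CPM in F2 saline replicates 1 to 4. The METH values lay within the saline range. The log2 fold change was -0.050 (SE 0.20, edgeR adjusted p = 0.992), and 0.14 without F2 saline replicate 1, the highest library.

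Aox3 was at 1.18, 1.32, 0.664 and 0.779 CPM in F2 METH replicates 1 to 4 and at 0.971, 0.552, 1.04 and 1.87 CPM in F2 saline replicates 1 to 4. These groups overlapped as well. The log2 fold change was -0.16 (SE 0.37, edgeR adjusted p = 0.987), and 0.21 without F2 saline replicate 4, the highest library.

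edgeR called 0 of the 3 members tested in F2, against 0 of 18093 genes (0.0%), while DESeq2 called 7 genes and limma-voom 1, with 0 members among them. An unadjusted p under 0.05 was seen for 863 genes (4.77%) and for 0 members. Groups that did not overlap were found for 2.54% of genes and for 0 of the 3 tested members. Aox4 made up 5.79% ± 0.672 of the summed family TPM in F2 METH and 5.45% ± 2.25 in F2 saline, while Aox1 made up 82.9% ± 4.64 in F2 METH and 82.1% ± 7.60 in F2 saline (SD, n = 4 each).

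The difference of the METH effect between generations was tested over all 15 libraries for the members not chosen by their F1 values. For Aox1 the F1 effect exceeded the F2 effect by 0.38 on the log2 scale (SE 0.28, edgeR adjusted p = 1.00). For Aox3 the difference was -0.037 (SE 0.56, edgeR adjusted p = 1.00). Neither passed. Of 19308 genes, edgeR called 1 (0.00518%), and 943 had an unadjusted p under 0.05 (4.88%). The called gene was Aox4, whose F1 reads selected it, so its call is no independent evidence. The count of called genes was 0 with limma-voom and 8 with DESeq2, and it was 0 after leaving out any 1 library other than F1 saline replicate 2, without which it was 2.

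The spread of the members bears on how firmly these values can be read. For Aox1 the coefficient of variation of CPM within groups ran from 15.8% to 26.2%, and counting error alone would give 6.73% to 7.53%. For Aox3 it ran from 22.7% to 49.8%, against 15.1% to 16.6% from counting. For Aox4 it was 16.7% in F1 saline, 23.0% in F2 METH and 40.4% in F2 saline, against 20.6%, 24.4% and 23.9% from counting. In F1 saline and F2 METH, the animals thus varied in Aox4 by no more than its read counts alone would give. Over the 15 libraries, as deviations from group means, Spearman's rho was -0.12 between Aox1 and Aox3, 0.22 between Aox1 and Aox4 and 0.20 between Aox3 and Aox4. The values with Aox4 rest on few reads and on 3 libraries at 0, so they say little about whether it varies with the others.

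Genes whose pattern was most like each member were found by the same measure over the 15 libraries among 17837 genes. For Aox1 they were Lamb2, a laminin chain of basement membranes (rho 0.91), Sspo, the subcommissural organ spondin gene (0.90), Dpp7, a dipeptidyl peptidase (0.89), Mief2, a mitochondrial dynamics factor (0.88), and the noncoding Gm46060 (0.88). For Aox3 they were Nme5 (0.91), Denr, a translation reinitiation factor (0.90), Dnajc8 (0.89), the noncoding 1700101I11Rik (0.89) and Limd2 (0.89). For Aox4 they included Nadsyn1, an NAD synthetase (0.86), Iqank1 (0.85), Vegfd, a vascular growth factor (0.84), and Rnf20, a ubiquitin ligase for histone H2B (0.83). These libraries share depth and tissue makeup, and values of this size are the highest among many genes. The lists of most similar genes are given as a description.

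The genes around the cluster were examined next, to see how far along the chromosome a difference between the groups reached. The nearest 6 protein-coding genes on each side were 1700066M21Rik, Tyw5, Maip1, Spats2l, Kctd18 and Sgo2a upstream, and Bzw1, Clk1, Ppil3, Nif3l1, Orc2 and Fam126b downstream. All 12 were measured in both generations. In F1, 5 were higher and 7 lower in METH libraries, with log2 fold changes from -0.11 to 0.22 and a median of -0.019, beside -0.0035 over all genes tested. In F2, 4 were higher and 8 lower, from -0.16 to 0.12, with a median of -0.020 beside -0.0020 over all genes. edgeR called 0 of the 12 in either generation, and 0 had an unadjusted p under 0.05. The closest genes outside the cluster had fitted values near 0 in F1. Sgo2a, a shugoshin that protects centromeric cohesion, was at 1.28 ± 0.635 CPM in METH and 1.37 ± 0.438 CPM in saline libraries. Its log2 fold change of -0.098 (SE 0.41) leaves room for a moderate difference either way. Bzw1, a translation regulator, was at 113 CPM in METH and 111 CPM in saline libraries (log2 fold change 0.023, SE 0.084). Clk1, a kinase of splicing factors, had the highest value of the 12, a log2 fold change of 0.22 (SE 0.15).

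**Figure D3:**
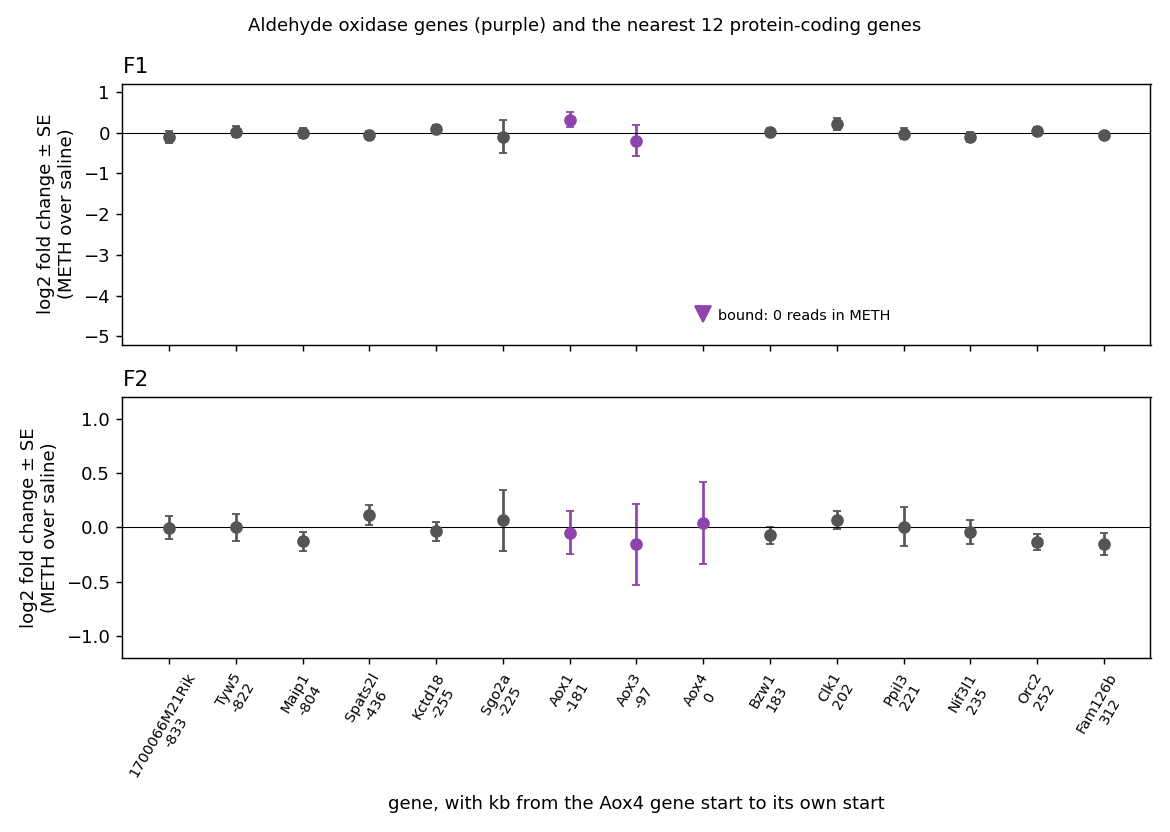
Log2 fold change (METH over saline, ± SE) of the aldehyde oxidase genes (purple) and the nearest 12 protein-coding genes (grey), F1 above and F2 below, in order along chromosome 1 with the distance in kb between gene starts and that of Aox4. The F1 value of Aox4 is the bound for 0 reads (at least 22.0-fold lower, with the F1 saline rate taken as exact). The 12 other genes lie between -0.11 and 0.22 in F1, and Aox2 was too low to be fitted.

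Aldehyde oxidases need the molybdenum cofactor, and 9 of 10 genes for its synthesis or for other enzymes that use it were tested. In F1, 2 were higher and 7 lower in METH libraries, with a median log2 fold change of -0.046 beside -0.0035 over all genes. In F2, 4 were higher and 5 lower, with a median of -0.032 beside -0.0020. edgeR called 0 in either generation. Beside 4.18% of all genes in F1 and 4.77% in F2, an unadjusted p under 0.05 was seen for 0 of these in F1 and 1 in F2. That gene was Mocs2, which encodes both subunits of molybdopterin synthase, at 25.7 ± 4.60 CPM in F2 METH and 31.7 ± 2.07 CPM in F2 saline (log2 fold change -0.30, SE 0.11, edgeR adjusted p = 0.960). In F1 it had a log2 fold change of -0.24 (SE 0.18).

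Mocos, the sulfurase that makes the cofactor active in aldehyde oxidases, was at 1.76 ± 0.367 CPM in F1 METH and 1.81 ± 0.498 CPM in F1 saline. In F2 it was at 1.74 ± 0.350 CPM in METH and 1.93 ± 0.211 CPM in saline libraries. Gphn, gephyrin, which completes the cofactor and also anchors inhibitory receptors, had log2 fold changes of -0.062 in F1 and -0.032 in F2. Xdh, the related xanthine dehydrogenase, had values of 0.27 (SE 0.26) in F1 and -0.25 (SE 0.17) in F2. Marc2, an amidoxime-reducing enzyme, was at -0.26 (SE 0.17) in F1. The tested genes for the cofactor and for other enzymes that use it were thus measured in every group, without a difference called by edgeR. Marc1 was too low to be tested in either generation.

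The aldehyde dehydrogenases, which oxidise aldehydes with NAD or NADP instead of oxygen, were tested for 17 of 21 members in F1 and 16 in F2. In F1, 12 were higher and 5 lower in METH libraries, with a median log2 fold change of 0.052. In F2, 10 were higher and 6 lower, with a median of 0.026. edgeR called 0 in either generation. An unadjusted p under 0.05 was seen for 0 in F1 and 3 in F2, beside 4.18% of all genes in F1 and 4.77% in F2. The 3 were Aldh1a1, a retinaldehyde dehydrogenase of dopaminergic neurons, Aldh1l1, a folate enzyme of astrocytes, and Aldh16a1, all with lower fitted values in F2 METH. In the same libraries 10 of 10 astrocyte markers (3 with an unadjusted p under 0.05) and 10 of 10 microglia markers (3 likewise) had lower fitted values. So had 9 of 10 oligodendrocyte, 9 of 12 endothelial (2 likewise), 9 of 12 fibroblast and meningeal (2 likewise) and 6 of 7 choroid plexus markers. Lower values were seen for 5 of 8 ependymal, 5 of 10 cortical excitatory neuron, 3 of 5 erythrocyte, 3 of 10 pericyte and 2 of 10 spiny projection neuron markers. Summed astrocyte markers ran from 4342 to 4912 CPM in F2 METH and from 4456 to 5769 CPM in F2 saline, microglia markers from 370 to 422 CPM in F2 METH and from 350 to 537 CPM in F2 saline, and 0 markers of either list were at 0 reads. The part of these cell types in the Aldh values was not tested. Aldh1a1, which shares retinaldehyde as a substrate with aldehyde oxidases, was at 12.2 ± 3.59 CPM in F1 METH and 9.50 ± 1.54 CPM in F1 saline. In F2 it was at 8.25 to 10.6 CPM (mean 8.92) in METH and 11.7 to 16.9 CPM (mean 13.9) in saline libraries (edgeR adjusted p = 0.994 in F1 and 0.960 in F2). Some members were too low to be tested. Aldh1a3, another retinaldehyde dehydrogenase, had 0 reads in each F1 METH library, against 0, 18, 10 and 0 reads in F1 saline replicates 1 to 4. Aldh3a1, an enzyme best known from the cornea, had 0, 3 and 9 reads in F1 METH, against 8, 11, 37 and 3 reads in F1 saline. Their reads were uneven among saline animals, and both genes are named here after their values were seen. In F2, Aldh1a3 had 8 reads over METH and 8 over saline libraries. Aldh2, the mitochondrial enzyme, was at 100.3 ± 6.76 CPM in F1 METH and 95.4 ± 3.67 CPM in F1 saline, and at 102 ± 3.52 CPM in F2 METH and 95.9 ± 8.34 CPM in F2 saline.

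Of 15 aldehyde and carbonyl reductases and alcohol dehydrogenases, 9 were tested in F1 and 8 in F2. There were 2 higher and 7 lower in F1 METH (median log2 fold change -0.025) and 2 higher and 6 lower in F2 METH (median -0.096). Akr1a1, aldehyde reductase, had values of -0.13 (SE 0.080) in F1 and -0.13 (SE 0.060) in F2. Cbr3, a carbonyl reductase, had 0.26 (SE 0.13) in F1, and Akr1b10 had -0.46 (SE 0.21) in F2. edgeR called 0 genes of this list, with 0 at an unadjusted p under 0.05.

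Of 24 genes of retinoid metabolism and its receptors, 22 were tested in F1 (8 higher and 14 lower, median -0.023) and 21 in F2 (10 higher and 11 lower, median -0.0033). edgeR called 0. Beside 4.18% of all genes in F1 and 4.77% in F2, an unadjusted p under 0.05 was seen for 1 of these in F1 and 0 in F2. It was Cyp26a1, which breaks down retinoic acid, at 0.206 ± 0.110 CPM in F1 METH and 0.536 ± 0.136 CPM in F1 saline (log2 fold change -1.37, SE 0.47, edgeR adjusted p = 0.994). In the F1 METH libraries 3 counts equal 0.0781 to 0.0936 CPM, so this value rests on few reads. Rxra, a retinoid receptor, had values of -0.18 (SE 0.099) in F1 and -0.18 (SE 0.082) in F2.

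Of 7 genes of amine and nicotinamide metabolism, which supply aldehyde or ring substrates, 6 were tested. In F1, 4 were higher and 2 lower (median 0.065), and in F2, 3 were higher and 3 lower (median 0.0015). edgeR called 0. The 1 gene with an unadjusted p under 0.05 was Aoc3, an amine oxidase of vessel walls, at 0.667 ± 0.0240 CPM in F1 METH and 0.351 ± 0.0896 CPM in F1 saline (edgeR adjusted p = 0.994). Such a p was seen for 4.18% of all genes in F1. The endothelial and pericyte markers given above beside Aox1 ran higher in the same libraries, and their part was not tested. Maoa and Maob, the mitochondrial amine oxidases that turn dopamine into its aldehyde, did not pass either. In F1 the log2 fold change was -0.020 (SE 0.081) for Maoa and 0.22 (SE 0.12) for Maob. In F2 it was -0.023 (SE 0.095) for Maoa and -0.023 (SE 0.10) for Maob.

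**Figure D4:**
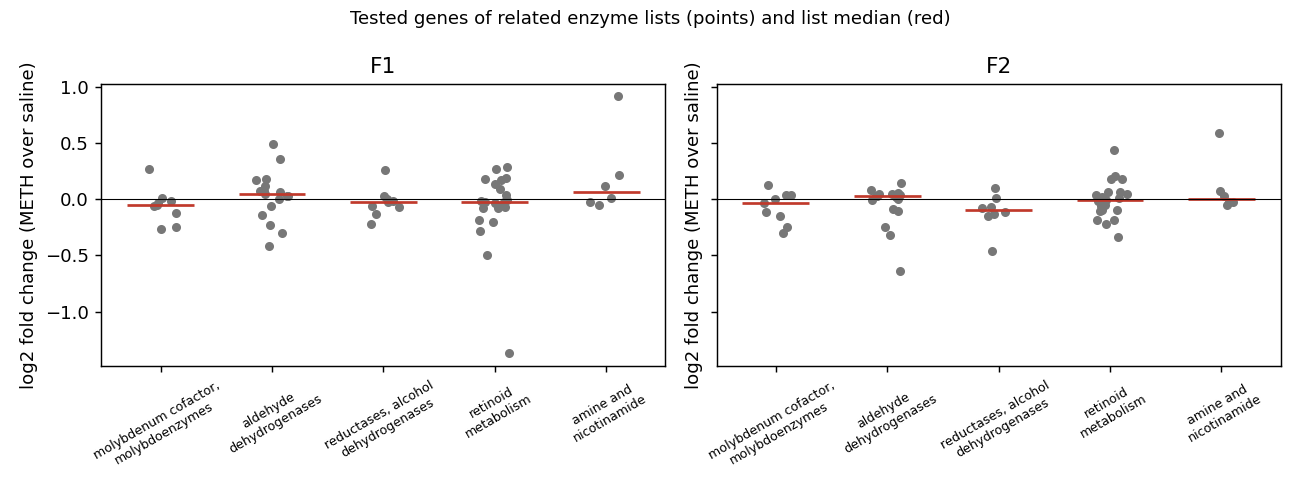
Log2 fold change (METH over saline) of each tested gene of the 5 related lists (points) with the list median (red line), F1 on the left and F2 on the right. Medians lie between -0.046 and 0.065 in F1 and between -0.096 and 0.026 in F2, and the lowest point is Cyp26a1 in F1 at -1.37.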

How the data were processed

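Striatal RNA of 15 mice was sequenced. The submitters' processing notes list build mm10, StringTie 2.1.3b, HISAT2 2.1.0, Trimmomatic and bcl2fastq 2.20.0, and say nothing here of order, settings or strand. Without strand, antisense reads cannot be told apart. The authors deposited 1 table per generation with counts (whole numbers, used as raw counts), FPKM (not used here) and TPM, per the file headers. All 45 value columns carried a sample's name.

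Counts were tested per generation with edgeR 4.0.16 (quasi-likelihood, TMM, filterByExpr with a minimum count of 10, adjusted p under 0.05) in R 4.3.3, and the difference between generations as an interaction over 15 libraries. CPM used TMM-scaled totals. Alternatives were DESeq2 1.42.0, limma 3.58.1 (voom, and trend on log2 of TPM + 1 or + 0.1), other filters and size factors, a replicate block, 1 fit of all libraries, leaving out each library, and leaving out those with Slc17a7 above 100 CPM. The 21 replicate pairs differed beyond sampling noise (chi-square per degree of freedom 16.1 to 65.8). The main edgeR fits were tested on simulated counts, and the other steps were not.

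The members and lists were chosen with earlier results of these data known. Named were the members, per list and generation among the 3 smallest p plus 7 fixed genes, 6 protein-coding neighbours a side, the 5 genes most alike (1 for Aox4 is not reported here), and features read in 1 group only. All 4 members matched the RefSeq promoter table. Figures used Python 3.11.15 and matplotlib 3.10.9.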

Additional observations from a re-analysis of the deposited data

How the results depend on the processing

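Over 135 values under other settings for Aox1 and Aox3 in F1, in F2 and in the difference and for Aox4 in F2, 0 passed the threshold (smallest adjusted p = 0.449, Aox1 in F1 with the replicate block). Aox4 in F1 and in the difference is not among them, since its F1 reads chose it. It was called in F1 by DESeq2, limma-voom and the fit of all 15 libraries. In the difference it was called by edgeR with either size factors, with no filter and without F1 saline replicate 2, and by DESeq2. These calls rest on the reads that chose the gene, so they are no independent evidence and no measure of robustness. Aox1 kept its sign in F1 (0.19 to 0.44) and in the difference (0.19 to 0.50) under every setting run. The small values of Aox3 and, in F2, of all 3 tested members turned sign under some. On log2(TPM + 1), Aox3 stood at 0.0036 in F1 and 0.070 in the difference, and on log2(TPM + 0.1) the difference stood at 0.052. Without libraries with Slc17a7 above 100 CPM, Aox1 stood at 0.0077 and Aox3 at 0.034 in F2, and the Aox4 bound in F1 was 13.1-fold. Leaving out 1 library, the values ran in F1 from -0.54 to 0.13 for Aox3, in F2 from -0.18 to 0.14 for Aox1, from -0.37 to 0.21 for Aox3 and from -0.13 to 0.22 for Aox4, and from -0.40 to 0.30 for the difference in Aox3. The bound ran from 13.8-fold (without F1 METH replicate 2) to 23.4-fold, since fewer METH reads raise the floor. It was 22.4-fold on raw totals, a setting chosen after seeing the data.

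Genes called in F1 numbered 0 with edgeR, 11 with DESeq2, 3 with limma-voom, 1 on either TPM scale, 1 without libraries with Slc17a7 above 100 CPM, 1 in a fit of all 15 libraries, and 0 to 2 leaving out 1 library (1 without F1 METH replicate 1 or F1 saline replicate 1, 2 without F1 saline replicate 2). In F2 they numbered 7 with DESeq2, 1 with limma-voom, 1 without libraries with Slc17a7 above 100 CPM and 0 to 1 leaving out 1 library (1 without F2 METH replicate 1 or F2 saline replicate 1, 3 or 4). For the difference they numbered 8 with DESeq2, and 0 with limma-voom, on either TPM scale, with a mean CPM of at least 1, with the replicate block and without libraries with Slc17a7 above 100 CPM, and 0 to 2 leaving out 1 library. The cause was not tested. Replicate numbers, taken from the sample titles, did not pair the libraries. Correlations of same-numbered deviations were -0.035, 0.059 and 0.40 in F1 and -0.062 to 0.039 in F2. Of the METH libraries, 1 of 3 in F1 and 0 of 4 in F2 correlated best with their own number. The labels also hold other numbers, which were not used here, so this check cannot show whether animals are related. With the replicate block edgeR called 0 genes in each generation and 0 for the difference. A filter on a mean CPM of at least 1 removed Aox4, which gave no value there. Read depth limits Aox4 and Aox2 most.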
